A study of Mus musculus with 12 samples.

Results

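Intraflagellar transport (IFT) and BBSome genes were examined as a set of 35 genes, taken from the deposited gene table by their symbols out of 32867 genes in all. The set was chosen by function, with earlier results of these data known, and all 35 were found in the table. By role they are 6 genes of the IFT-A complex, 7 of the core and 4 of the periphery of the IFT-B complex, 8 genes of the BBSome and the small GTPase that recruits it, 2 genes of the chaperonin that assembles it, 4 genes of the kinesin-2 motors and 4 genes of the connecting cilium. Retinal RNA was sequenced in 12 samples, 3 in each of 4 groups. Pde6b rd1 mice, which carry a loss-of-function allele of the rod phosphodiesterase gene Pde6b, were sampled at postnatal day (PN) 13. Pde6b rd10 mice, which carry a point mutation in the same gene, were sampled at PN23, and Prph rd2 mice, which carry a mutation of the disc protein gene Prph2, at PN29. These days were chosen as the peak of photoreceptor death in each model. The control group was C3H mice with wild-type alleles of both genes, with 1 sample each labelled PN13, PN23 and PN29. The study's methods place Pde6b rd1 and Prph rd2 on the C3H background and Pde6b rd10 on C57Bl6/J, while the sample labels name C57BL6/J for Prph rd2. Each model was sampled on a single day while the C3H samples carry different days, so that age cannot be told apart from the mutation in any model. In Pde6b rd10 the strain cannot be told apart from it either, and the background of Prph rd2 is stated in 2 ways. The labels do not say that the samples of a group came from separate animals, so that the p-values below measure only the spread between these samples.

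The samples held 17049495 to 24755890 reads on genes, of which each of the 35 genes had between 31 and 22147. The floor of 3 counts corresponds to 0.121 to 0.176 CPM, which are counts scaled to the library size, and the 35 genes lay above it in all samples. The retina was recognizable from its markers in all groups, with none of the 8 rod markers at 0. Their summed level was 26094 to 26891 CPM in C3H, 13054 to 13234 in Pde6b rd1, 22246 to 23136 in Pde6b rd10 and 17312 to 18446 in Prph rd2. In bulk tissue, fewer cells of a type and less RNA per cell cannot be told apart. The groups also differed in sex-linked RNA. Xist, the RNA of the inactive X chromosome, lay between 0.384 and 0.511 CPM in the C3H samples and between 3673 and 3902 CPM in Pde6b rd1, where the 4 Y-linked genes examined were at 0. Every sample of Pde6b rd10 and Prph rd2 held both Xist and Y-linked RNA.

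Photoreceptors build their light-sensitive outer segment as a modified primary cilium, which is joined to the cell body by a narrow connecting cilium. IFT trains carry cargo along the microtubules of the cilium: IFT-B travels outward with kinesin-2, and IFT-A with dynein-2 serves the return journey and the entry of membrane proteins. The BBSome is an adaptor that rides on these trains and removes membrane proteins from the cilium, and mutations in many of these genes cause retinal degeneration in Bardet-Biedl syndrome, Leber congenital amaurosis or retinitis pigmentosa.

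Levels of different genes were compared per gene length, as FPKM. In C3H the highest mean level was that of Rpgrip1, 76.6 FPKM, which encodes the protein that anchors the Rpgr protein in the connecting cilium. Arl6, the small GTPase that recruits the BBSome to membranes, followed with 62.5 FPKM, and the samples of these genes did not overlap, with 75.8 to 77.1 FPKM for Rpgrip1 and 60.0 to 63.8 FPKM for Arl6. Kif17, the homodimeric kinesin-2 motor, was the lowest with 0.469 FPKM. The median of the 35 genes was 9.95 FPKM. When the genes were ordered by their mean in C3H, the samples overlapped in 17 of the 34 pairs of neighbours, so that only the coarse order is resolved by these samples. In Pde6b rd10 the leading pair was exchanged. Arl6 had 91.6, 86.1 and 99.1 FPKM in the 3 samples, against 68.5, 68.0 and 69.9 FPKM for Rpgrip1, and the ranges did not overlap. In Pde6b rd1 the pair was not resolved, with 67.9 to 73.9 FPKM for Arl6 and 69.0 to 70.02 FPKM for Rpgrip1. Across the 35 genes, Spearman's rho of the mean FPKM with that in C3H was 0.980 in Prph rd2, 0.966 in Pde6b rd1 and 0.961 in Pde6b rd10, which describes genes and not replicates.

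**Figure D1:**
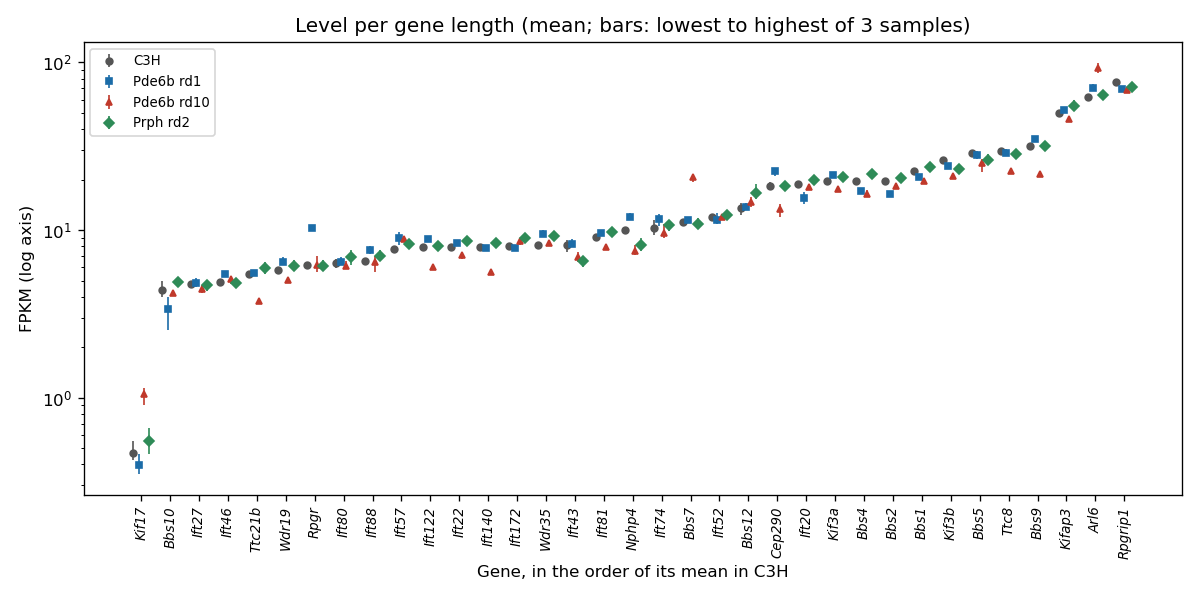
Mean FPKM (log axis) of each of the 35 genes in the 4 groups, in the order of the C3H mean, with bars from the lowest to the highest of 3 samples. Rpgrip1 and Arl6 are at the top and Kif17 is at the bottom in every group, and in Pde6b rd10 Arl6 (92.3 FPKM) lies above Rpgrip1 (68.8 FPKM).

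The models were each set against the same 3 C3H samples, so that the comparisons share their controls. Counts were tested with edgeR's quasi-likelihood test over all genes, and per-sample values are given as CPM normalized by the TMM method. The study's thresholds, an unadjusted p under 0.05 together with a change of 1.5-fold or more (0.585 on the log2 scale), were used to call genes. Genes with an adjusted p under 0.05 (edgeR, Benjamini-Hochberg over all genes tested) at any fold were counted as well. All 35 genes passed the filter on low counts in every comparison. Groups without overlap are common with 3 samples each. Of 18704 genes tested, the Pde6b rd10 samples lay wholly above those of C3H for 5835 and wholly below for 5190. In Pde6b rd1 these numbers were 4730 and 4616 of 18310, and in Prph rd2 3328 and 2083 of 18581. Between Pde6b rd10 and Pde6b rd1 they were 6279 and 6129 of 19616. A lack of overlap is therefore not particular to the genes below.

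In Pde6b rd10, most genes of the set were lower than in C3H. Of the 35, 19 were lower and 3 higher at an adjusted p under 0.05, where 26.3% of the 18704 genes tested were lower and 27.7% higher. The median log2 fold change of the 35 was -0.18, against -0.00 for all genes tested. Most of these changes were small, and at 1.5-fold only Ttc21b and Bbs9 were lower and Bbs7 and Kif17 higher, where 8.08% of all genes were lower and 15.9% higher. Both lower genes lay at the threshold, and none was 1.5-fold lower with library size alone (-0.54 for both) or with limma on FPKM. The summed level of the 35 genes was 2911 to 3043 CPM in Pde6b rd10 and 3380 to 3410 CPM in C3H, and the ranges did not overlap. The sum in Pde6b rd1, 3215 to 3354 CPM, also lay below C3H without overlap, while that in Prph rd2, 3280 to 3503 CPM, overlapped. In Pde6b rd10 over C3H, the rod markers had a median log2 fold change of -0.51, the 7 cone markers of 0.35 and the 8 microglia markers of 1.57. All 7 bipolar cell markers were lower at an adjusted p under 0.05, with a median of -0.40. The endothelial markers had a median of -0.38, the ganglion cell markers of -0.31, the Mueller glia markers of -0.25 and the 2 astrocyte and gliosis markers of 1.98. Whether these shifts in cell type markers have a part in the lower cilium genes was not tested.

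**Figure D2:**
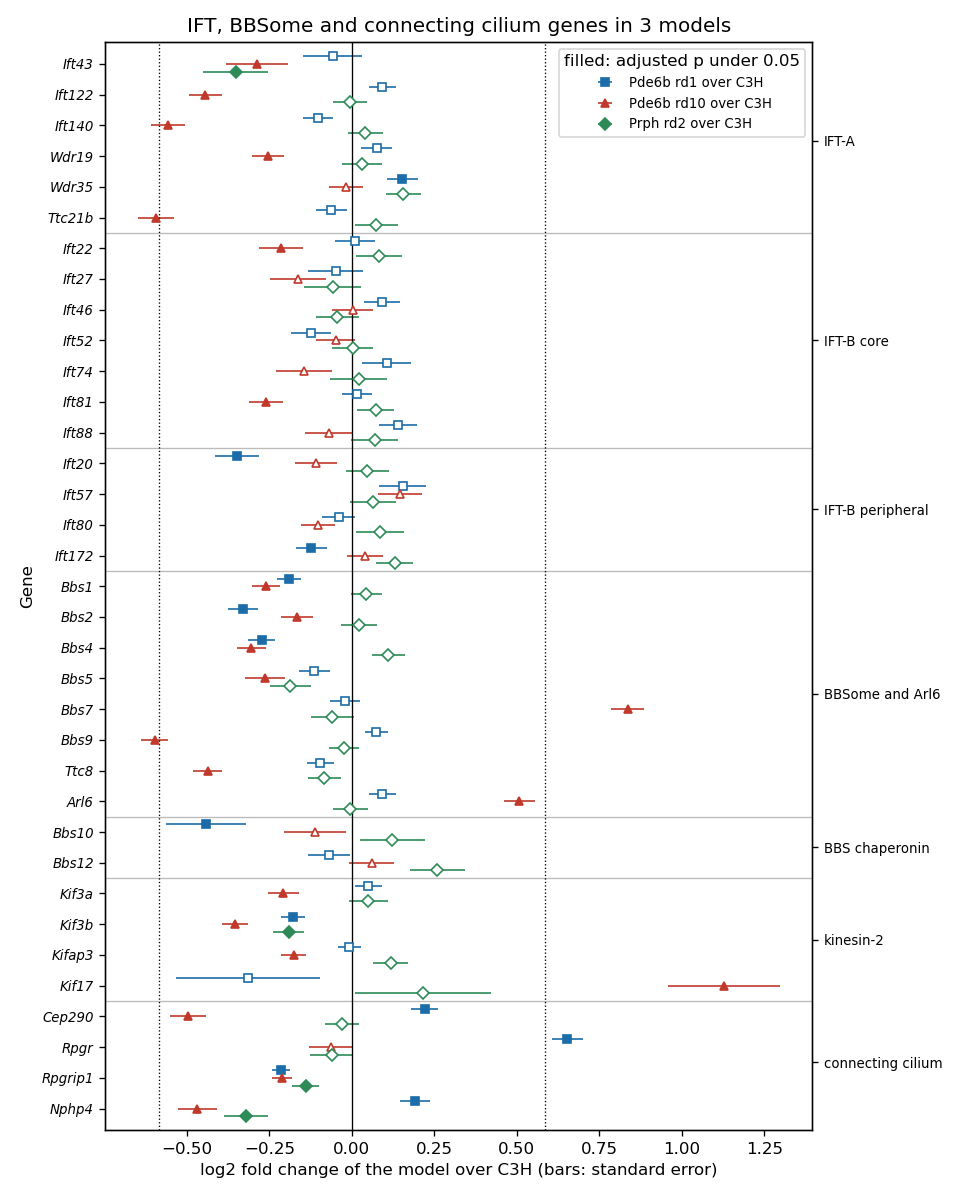
log2 fold change of each model over C3H with its standard error, grouped by role, with filled symbols for an adjusted p under 0.05 and dotted lines at 1.5-fold. In Pde6b rd10 most symbols lie left of 0, while Bbs7 (0.84), Arl6 (0.51) and Kif17 (1.13) lie far to the right.

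Of the 6 genes of IFT-A, 5 were lower in Pde6b rd10 at an adjusted p under 0.05, where 26.3% of all genes were. The sixth, Wdr35, had a log2 fold change of -0.02. Ttc21b, a peripheral IFT-A subunit on the minus strand of chr2:66184327-66256617 (GRCm38), had 52.9, 51.4 and 51.7 CPM in C3H and 36.03, 33.06 and 35.04 CPM in Pde6b rd10. All Pde6b rd10 samples lay below all C3H samples, and the log2 fold change was -0.59 (standard error, SE, 0.05 and adjusted p = 1.00e-08 from edgeR). Ift140, a core IFT-A subunit, had 66.6, 70.7 and 65.7 CPM in C3H and 48.2, 45.3 and 45.8 CPM in Pde6b rd10. The groups again did not overlap, and the log2 fold change of -0.56 (SE 0.05) was just short of 1.5-fold. Ift122 had a log2 fold change of -0.44, Ift43 of -0.29 and Wdr19 of -0.25. In Pde6b rd1 the same 6 genes lay between -0.10 and 0.15 on the log2 scale, and in Prph rd2 between -0.35 and 0.16.

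Of the 7 core genes of IFT-B, Ift22 (log2 fold change -0.22) and Ift81 (-0.26) were lower in Pde6b rd10 at an adjusted p under 0.05. They make up 28.6% of the core genes, where 26.3% of all genes were lower. The other core genes lay between -0.16 and 0.00. None of the 4 peripheral genes, Ift20, Ift57, Ift80 and Ift172, passed in Pde6b rd10 by edgeR's adjusted p, where 54.1% of all genes did. Ift57 passed an unadjusted p under 0.05 with a log2 fold change of 0.15.

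All 8 BBSome and Arl6 genes differed from C3H in Pde6b rd10 at an adjusted p under 0.05, where 54.1% of all genes did. They did not move in 1 direction. Bbs1, Bbs2, Bbs4, Bbs5, Bbs9 and Ttc8 were lower and Bbs7 and Arl6 higher. Bbs9, a scaffold subunit of the complex on chr9:22475715-22888280, had 195, 203 and 207 CPM in C3H and 138, 135 and 130.3 CPM in Pde6b rd10. The groups did not overlap, with a log2 fold change of -0.60 (SE 0.04, adjusted p = 9.48e-11 from edgeR). Ttc8, which encodes the subunit also known as BBS8, followed with a log2 fold change of -0.44.

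Bbs7, which encodes a propeller subunit that pairs with Bbs2 in the complex, moved the other way. It lies on the minus strand of chr3:36573142-36613477 and had 63.2, 59.5 and 60.9 CPM in C3H, 61.1, 57.8 and 62.1 in Pde6b rd1, 59.6, 55.0 and 65.1 in Prph rd2 and 115, 102 and 113 in Pde6b rd10. Every Pde6b rd10 sample lay above every other sample, while the other 3 groups overlapped. The log2 fold change of Pde6b rd10 over C3H was 0.84 (SE 0.05, adjusted p = 1.13e-11 from edgeR). Bbs2 had a log2 fold change of -0.17 in the same samples.

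Arl6 had 136, 137 and 128 CPM in C3H and 193, 178 and 206 CPM in Pde6b rd10. All Pde6b rd10 samples were higher, with a log2 fold change of 0.51 (SE 0.05, adjusted p = 1.19e-08 from edgeR), which is 1.42-fold and so below the fold threshold. The chaperonin-like genes Bbs10 and Bbs12 had log2 fold changes of -0.11 and 0.06 and passed no threshold in Pde6b rd10.

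The subunits of the heterotrimeric kinesin-2 were lower together in Pde6b rd10, all at an adjusted p under 0.05, where 26.3% of all genes were. The log2 fold changes were -0.21 for the motor Kif3a, -0.35 for the motor Kif3b and -0.18 for the accessory subunit Kifap3. Kif17 was higher. It lies on chr4:138250435-138301967 and had 1.99, 2.01 and 2.57 CPM in C3H and 5.18, 5.15 and 4.10 CPM in Pde6b rd10, from 39 to 50 and 83 to 128 reads per sample. All Pde6b rd10 samples were above all C3H samples, and the log2 fold change was 1.13 (SE 0.17, adjusted p = 9.89e-06 from edgeR). Kif17 shares 74 exonic bases on the same strand with Sh2d5, and reads in that stretch may be counted for either gene.

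Of the connecting cilium genes, Cep290, Nphp4 and Rpgrip1 were lower in Pde6b rd10 at an adjusted p under 0.05, where 26.3% of all genes were. Cep290, a large protein that ties the ciliary membrane to the microtubules, had 229, 212 and 208 CPM in C3H and 166, 137 and 161 CPM in Pde6b rd10. The groups did not overlap, and the log2 fold change was -0.50 (SE 0.05). Nphp4, a scaffold protein of the same zone, had a log2 fold change of -0.47, Rpgrip1 of -0.21 and Rpgr of -0.06. Cep290 shares 881 and Rpgrip1 1057 exonic bases with a gene on the opposite strand, and the strand setting of the counting is not given in the sources used here.

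**Figure D3:**
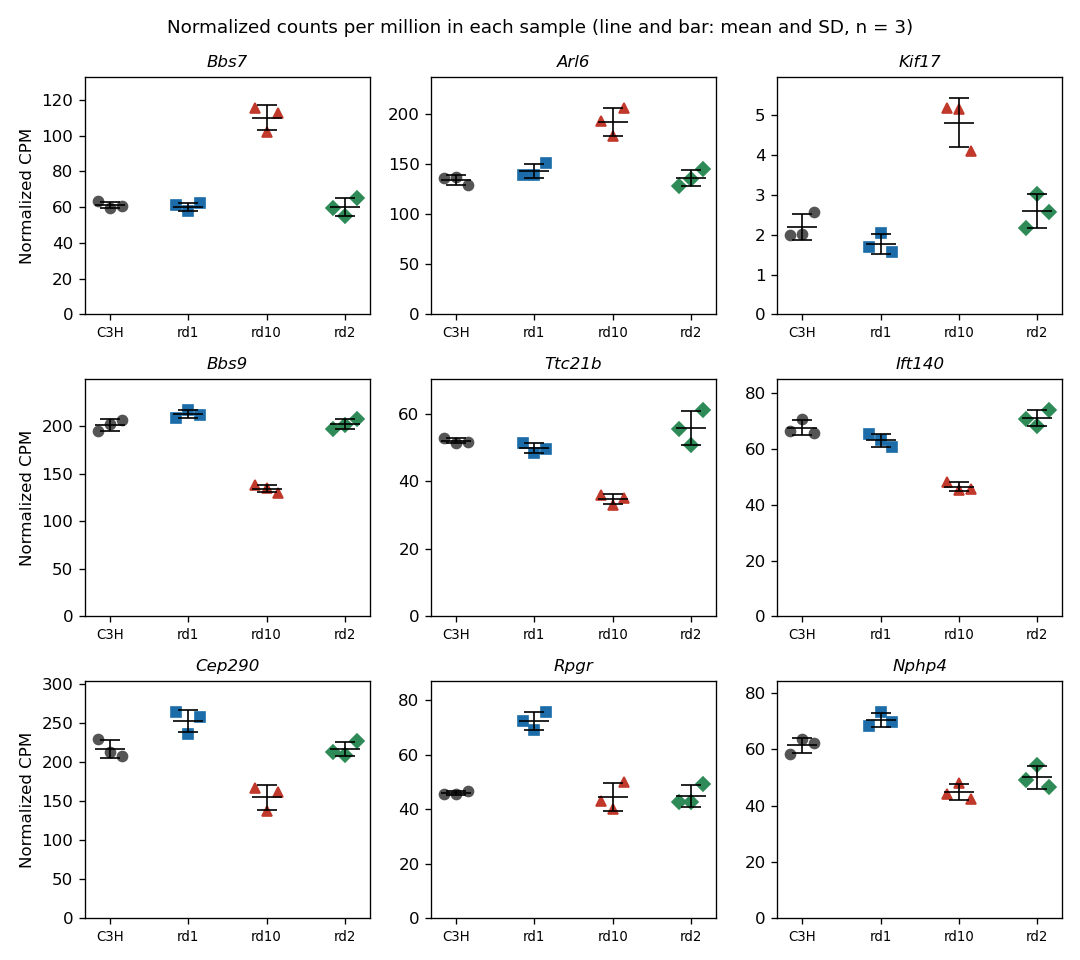
Normalized CPM of 9 genes in each of the 12 samples, with mean and SD of each group of 3, on axes that start at 0. Bbs7, Arl6 and Kif17 are highest in Pde6b rd10, Bbs9, Ttc21b, Ift140 and Cep290 are lowest there, and Rpgr is highest in Pde6b rd1 (69.0 to 75.5 CPM). Nphp4 has its lowest mean in Pde6b rd10 (44.84 CPM), but its samples overlap with those of Prph rd2 (mean 50.05 CPM).

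In Pde6b rd1, the set was shifted little. Of the 35 genes, 4 were higher and 8 lower at an adjusted p under 0.05, where 21.9% of the 18310 genes tested were higher and 21.3% lower, and the median log2 fold change was -0.04 against -0.01 for all genes. This split depended on the scaling, and with library size alone in place of TMM 12 were higher and 7 lower. All genes moved with it, with 5542 of the 18310 then higher and 2741 lower, against 4015 and 3891 with TMM. At 1.5-fold, Rpgr was higher and none of the 35 was lower, where 8.98% of all genes were higher and 6.03% lower. By edgeR at an adjusted p under 0.05, none of the 7 IFT-B core genes differed from C3H. At an unadjusted p under 0.05, the core gene Ift88 did, with a log2 fold change of 0.14. The rod markers had a median log2 fold change of -0.75 in this comparison, the cone markers of -0.71, the Mueller glia markers of -0.85 and the pigment epithelium markers of -0.82. The part of these marker shifts in the values of the set was not tested.

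Rpgr encodes a regulator of the small GTPases of the connecting cilium and is the main gene of X-linked retinitis pigmentosa. It lies on chrX:10073621-10216920 and had 45.4, 45.7 and 46.5 CPM in C3H and 72.1, 69.0 and 75.5 CPM in Pde6b rd1. Every Pde6b rd1 sample lay above every sample of the other groups, which reached 50.1 CPM in Pde6b rd10 and 49.3 CPM in Prph rd2. The log2 fold change over C3H was 0.65 (SE 0.05, adjusted p = 5.50e-11 from edgeR). Pde6b rd1 is also the group with the most Xist and no Y-linked RNA. Sex, age and mutation cannot be told apart in this comparison. The 557 genes of chromosome X that were tested had a median log2 fold change of 0.01, which does not bear on a single gene such as Rpgr. Rpgr shares 208 exonic bases on the same strand with Srpx.

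The other connecting cilium genes of Pde6b rd1 moved both ways, with log2 fold changes of 0.22 for Cep290, 0.19 for Nphp4 and -0.21 for Rpgrip1, all at an adjusted p under 0.05. Rpgrip1 had 951, 946 and 954 CPM in C3H and 823, 808 and 829 CPM in Pde6b rd1, and the groups did not overlap. In the BBSome, Bbs2 (-0.33), Bbs4 (-0.27) and Bbs1 (-0.19) were lower at an adjusted p under 0.05. Bbs9 had 209, 217 and 212 CPM, all above C3H, with a log2 fold change of 0.07 and an adjusted p of 0.0813 from edgeR. Bbs2 had 69.1, 64.5 and 66.2 CPM in C3H and 52.5, 52.7 and 53.8 CPM in Pde6b rd1. All of its Pde6b rd1 samples lay below those of C3H. Of the remaining genes, Bbs10 (-0.44), Ift20 (-0.35), which also acts at the Golgi apparatus, Kif3b (-0.18) and Ift172 (-0.12) were lower and the IFT-A gene Wdr35 (0.15) was higher. Bbs10 was the most variable of these, with 10.8, 7.47 and 11.8 CPM in Pde6b rd1 and 13.1, 12.6 and 15.6 in C3H, and its groups came close without overlapping.

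In Prph rd2, no gene of the set passed 1.5-fold in edgeR's test, where 2.68% of the 18581 genes tested were higher and 1.89% lower. At an adjusted p under 0.05, 4 were lower and none higher, where 5.17% of all genes were lower and 4.53% higher. With library size alone 2 were higher and 3 lower. All genes moved with it, with 1243 then higher and 780 lower, against 842 and 960 with TMM. The 4 genes lower with TMM were Ift43 (log2 fold change -0.35, standard error 0.10), Nphp4 (-0.32, 0.07), Kif3b (-0.19, 0.05) and Rpgrip1 (-0.14, 0.04). None of these 4 calls held under every alternative, and 1 gene was lower with the replicate number as a block and 0 with limma on FPKM. Nphp4 had 58.3, 63.5 and 62.3 CPM in C3H and 49.2, 54.5 and 46.5 CPM in Prph rd2. Ift43, a small IFT-A subunit, had 14.1, 12.5 and 14.8 CPM in C3H and 11.5, 11.2 and 10.2 CPM in Prph rd2. Neither gene overlapped between the groups. The median log2 fold change of the 35 genes was 0.03, while the rod markers had a median of -0.42. Bbs12 had the highest value, 0.26, and did not pass the adjusted p.

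Kif3b gives an example of a gene below C3H in all models. It had 146, 151 and 151 CPM in C3H, between 129 and 136 in Pde6b rd1, between 131 and 135 in Prph rd2 and 118 in every Pde6b rd10 sample. No model overlapped with C3H, but the comparisons share their control samples. Ift81 lies 14.2 Mb from Pde6b on chromosome 5 and Ift140 lies 21.9 Mb from Prph2 on chromosome 17, and these were the genes of the set nearest to a mutated gene.

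The models of the same gene, Pde6b rd10 and Pde6b rd1, were compared directly in a fit of all 12 samples. Of the 35 genes, 7 were higher and 16 lower in Pde6b rd10 at an adjusted p under 0.05, where 30.2% of the 19616 genes tested were higher and 27.0% lower. At 1.5-fold, Bbs7 (log2 fold change 0.88) and Kif17 (1.47) were higher and Cep290 (-0.69), Rpgr (-0.69), Bbs9 (-0.65) and Nphp4 (-0.63) lower, where 17.6% of all genes were higher and 11.2% lower. Cep290 had 264, 236 and 257 CPM in Pde6b rd1 and 166, 137 and 161 in Pde6b rd10. Nphp4 had 68.1, 73.2 and 69.7 CPM in Pde6b rd1 and 44.2, 48.1 and 42.2 in Pde6b rd10. For both genes C3H lay between the models, with no overlap on either side. All 6 genes of IFT-A had a lower estimate in Pde6b rd10, from -0.15 to -0.51, and 5 of them passed the adjusted p. Ift20 (0.26) and Ift172 (0.19) of the IFT-B periphery, Bbs2 (0.19), Arl6 (0.44) and Bbs10 (0.36) were higher in Pde6b rd10. Age, strain and allele differ together between these models and cannot be told apart.

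The C3H samples are labelled with different days, and their values for the set lay close together. The ratio of the highest to the lowest C3H sample had a median of 1.06 over the 35 genes, against 1.09 in both Pde6b models and 1.12 in Prph rd2. Kif17 had the largest C3H ratio, 1.29. The C3H sample labelled PN13 was the highest for 11 genes and the lowest for 11, that labelled PN23 for 11 and 12, and that labelled PN29 for 13 and 12. Over all genes with enough reads, pairs of C3H samples differed by a chi-square per degree of freedom of 1.75 to 2.94. Pairs of samples of 1 day gave 1.72 to 3.5 in Pde6b rd1, 2.39 to 6.37 in Pde6b rd10 and 5.43 to 10.9 in Prph rd2. Each day had a single C3H sample, and no test was made. The days are known from the labels alone, so that no lack of change with age can be read from these values.

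Beyond the set, 82 other cilium genes were examined as lists. In Pde6b rd10, 44 of the 80 that were tested were lower and 11 higher at an adjusted p under 0.05, with a median log2 fold change of -0.20, where 26.3% of all genes were lower and 27.7% higher. Of the 8 genes of dynein-2, the motor for the return journey, 7 were lower and 1 higher. The higher gene was Dync2h1, the heavy chain of the motor, with 181, 183 and 177 CPM in C3H and 210.0, 196 and 211 in Pde6b rd10 (log2 fold change 0.18). Dynll1 (-0.83), Dynlt1b (-0.97) and Tctex1d2 (-0.75), light chains of dynein, passed 1.5-fold. Dynlt1b has near-identical gene copies, which makes its counts uncertain. All 9 genes of the axoneme list passed the adjusted p, 7 lower and 2 higher. The microtubule proteins of the outer segment base Rp1 (-0.61) and Rp1l1 (-0.82) and the cadherin Cdhr1 (-0.74) passed 1.5-fold. Of 21 other genes of the transition zone, 10 were lower and 2 higher, and Tmem237 was lowest, with 103, 108 and 103 CPM in C3H and 52.5, 44.7 and 54.0 in Pde6b rd10 (log2 fold change -1.06, standard error 0.06). The Pde6b rd10 samples of Tmem237 all lay below those of C3H. Lca5, the gene of lebercilin at the ciliary base, had a log2 fold change of -0.76, and Ttc30a2, an IFT-B gene with a near-identical copy, of 0.91.

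In Pde6b rd1, 20 of 79 other cilium genes were higher and 19 lower at an adjusted p under 0.05, close to the 21.9% and 21.3% of all genes, with a median of 0.00. Of 8 genes for the transport of lipid-modified proteins to the outer segment, 6 were lower and none higher at an adjusted p under 0.05 by edgeR, among them Arl3 (-0.74), the GTPase that releases such cargo in the cilium, and Unc119 (-0.69), a carrier of transducin. In Pde6b rd10, 5 of these 8 genes were lower, where 26.3% of all genes were, and in Prph rd2 3, where 5.17% were. In Prph rd2, 6 of the 80 other cilium genes tested were lower and 5 higher, where 5.17% of all genes were lower and 4.53% higher, with a median of -0.01.

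**Figure D4:**
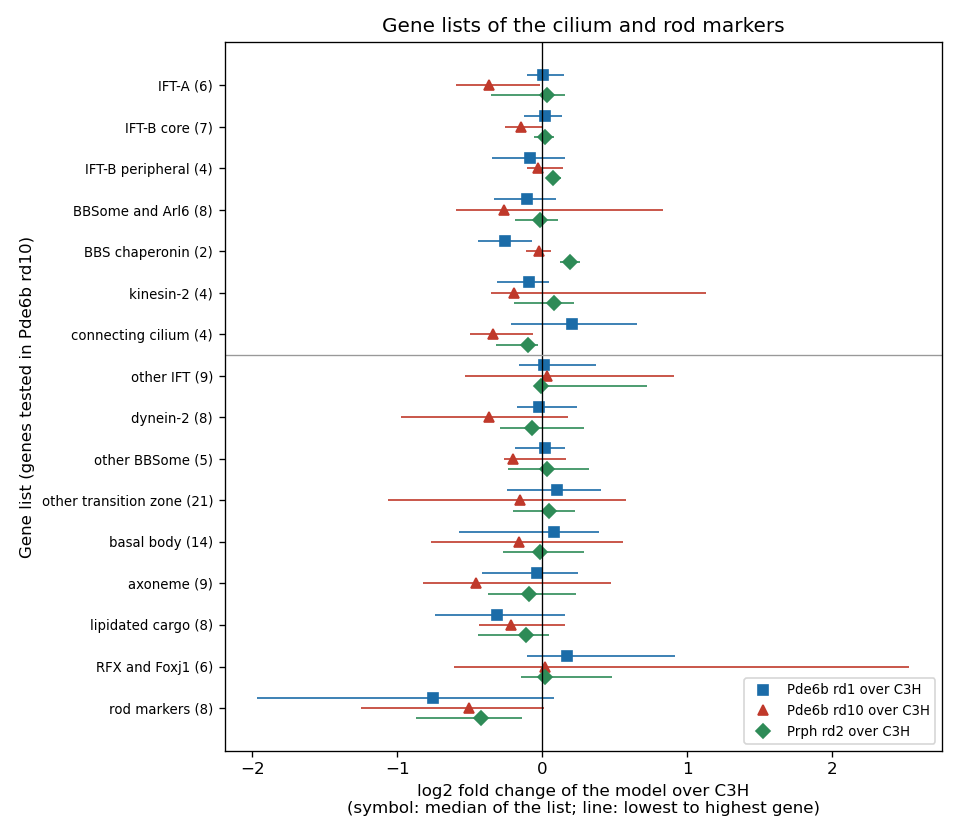
Median log2 fold change of each list over C3H, with lines from its lowest to its highest gene, for the 7 roles of the set (above the grey line) and other cilium genes and rod markers (below it). In Pde6b rd10 the medians of IFT-A (-0.37), dynein-2 (-0.37) and axoneme genes (-0.46) lie left of 0, while in Prph rd2 the cilium lists stay close to 0.

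RFX transcription factors activate many cilium genes by binding the X-box of their promoters. Rfx2 had 5.21, 6.11 and 7.0 CPM in C3H, 11.5, 11.6 and 11.6 in Pde6b rd1, 8.69, 8.89 and 8.54 in Prph rd2 and 35.4, 40.4 and 31.4 in Pde6b rd10. No model overlapped with C3H, with log2 fold changes of 2.53 (SE 0.11) in Pde6b rd10 and, in the other models, of 0.92 for Pde6b rd1 and 0.48 for Prph rd2, all at an adjusted p under 0.05. Rfx3 had 126, 128 and 119 CPM in C3H and 81.5, 83.0 and 83.7 CPM in Pde6b rd10. Its groups did not overlap, with a log2 fold change of -0.61, whereas it was 0.39 in Pde6b rd1. Of the 6 genes tested from the list of RFX factors and Foxj1, 1 was higher and 2 lower in Pde6b rd10 at an adjusted p under 0.05. Of all genes, 27.7% were higher and 26.3% lower, and the median of the list was 0.02. Whether these factors have a part in the values of the set was not tested.

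Promoters of 32 of the 35 genes were found in RefSeq (GRCm38.p6), as 250 bases before to 50 bases after the start site. They were searched on both strands for an X-box, written here as GTTNCC followed by GGNAAC with 0 to 3 bases between them. Of the 32 genes, 2 held it, Bbs7 and Ift57, which is 6.25% against 0.936% of the 27025 genes in the table. The sequences are shown because these are the X-boxes of the set, with the motif in capitals, 30 bases on each side, 5′ to 3′ on the gene's strand. The Bbs7 motif lies at -121 to -108 and the Ift57 motif at -60 to -48 relative to the RefSeq start site. The GENCODE start of both genes lies further upstream, and by it the Ift57 motif falls within the gene.
Bbs7, minus strand of chr3:36613467-36613540: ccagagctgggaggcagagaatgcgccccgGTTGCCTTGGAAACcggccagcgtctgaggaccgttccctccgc
Ift57, plus strand of chr16:49699204-49699276: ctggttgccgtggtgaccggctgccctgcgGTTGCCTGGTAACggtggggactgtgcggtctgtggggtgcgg

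In Pde6b rd10, Bbs7 was higher with a log2 fold change of 0.84 and Ift57 had 0.15. Either arm of the motif alone, GTTNCC or GGNAAC, was found in 24 of the 32 genes (75.0%, against 48.8% of all genes). The core motif of the photoreceptor factor Crx, TAATCC, was found in Bbs1 and Rpgrip1, which is 6.25% against 8.14% of all genes. A match describes letters and not binding, and no match says only that these letters are not in this window.

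Circular RNAs (circRNAs) are closed loops of exons, counted by the reads that cross their back-splice junction. The samples held 9819 to 25009 junction reads. Of the 12510 circRNAs in the deposited table, 94 came from 21 of the 35 genes. Bbs9 led by far, with 26 circRNAs and 2513 junction reads over the 12 samples, which is 67.8% of the junction reads of the set and rank 2 among 3933 host genes. Rpgrip1 followed with 14 circRNAs and 405 reads and Nphp4 with 10 and 361, while 14 of the 35 genes, among them Bbs1, had no circRNA in the table.

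The circRNAs that the results turn on are shown by the sequence across their junction, with 30 bases on each side, all coding, and the 5 bases on each side of the back-splice in capitals. Both ends of each one lie at annotated exon ends. Sequence and coordinates are those of GRCm38, and all 4 are on the plus strand.
Bbs9, chr9:22643745-22679064: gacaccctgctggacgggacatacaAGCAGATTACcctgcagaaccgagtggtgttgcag
Rpgrip1, chr14:52147210-52150493: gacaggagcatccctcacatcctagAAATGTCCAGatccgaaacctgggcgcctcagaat
Rpgrip1, chr14:52136658-52150493: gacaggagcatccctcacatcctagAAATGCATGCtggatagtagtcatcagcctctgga
Rpgrip1, chr14:52149216-52158454: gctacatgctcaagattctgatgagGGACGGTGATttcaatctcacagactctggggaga

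Junction counts were tested in the same way, where 3 or more of the 6 samples had 2 or more junction reads, and a 2-fold change with an unadjusted p under 0.05 was called. In Pde6b rd10, 26 circRNAs of the set were tested, of which 2 were called higher and none lower, where 6.71% of the 2339 circRNAs tested were higher and 5.13% lower. Both were circRNAs of Rpgrip1. That of 13836 genomic bases, from 52136658 to 52150493 on chromosome 14, had 14, 7 and 6 junction reads in the Pde6b rd10 samples and 0 in all 9 others. Against the floor of 3 reads over the 3 C3H samples, it was at least 7.56-fold higher (adjusted p = 0.0093 from edgeR). It passed the filter on reads only through the Pde6b rd10 samples, where it was high, so that this p-value is no independent support. That of 9239 bases, from 52149216 to 52158454, had 9, 7 and 5 reads in Pde6b rd10 and 0, 2 and 1 in C3H. Its groups did not overlap, but its adjusted p from edgeR was 0.167. This circRNA could not have passed the filter without the Pde6b rd10 samples either.

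The most abundant Rpgrip1 circRNA, of 3284 bases, ends at the same exon end as the first of these, as their shared first 30 bases show. It had 26, 31 and 28 reads in C3H, 11, 5 and 10 in Pde6b rd1, 15, 21 and 22 in Prph rd2 and 44, 25 and 24 in Pde6b rd10. Only Pde6b rd1 was called, as lower, with a log2 fold change of -1.33 (SE 0.33, unadjusted p = 0.000667), and its adjusted p from edgeR was 0.149. It was the 1 called circRNA of the 18 tested in Pde6b rd1, where 5.25% of all circRNAs were lower and 1.12% higher. In Prph rd2, none of the 26 tested was called by edgeR, where 2.04% of all were higher and 1.40% lower, and 1 had an unadjusted p under 0.05.

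The leading Bbs9 circRNA, of 35320 genomic bases and 1202 reads, had 111, 166 and 86 reads in C3H, 87, 56 and 71 in Pde6b rd1, 105, 85 and 101 in Pde6b rd10 and 105, 124 and 105 in Prph rd2. Relative to all junction reads it was lower in Pde6b rd10, with a log2 fold change of -0.52 (SE 0.14, adjusted p = 0.0476 from edgeR). In Pde6b rd1 the value was -0.35 with an adjusted p of 0.607 by edgeR, and in Prph rd2 it was -0.17.

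For Bbs9, all junction reads were also set against the reads counted on the gene. There were 65.5, 63.8 and 48.8 junction reads per 1000 gene reads in the C3H samples, 37.4, 33.1 and 34.1 in Pde6b rd1, 68.8, 74.7 and 82.7 in Pde6b rd10 and 46.4, 51.5 and 44.0 in Prph rd2. All Pde6b rd1 samples lay below and all Pde6b rd10 samples above those of C3H, while Prph rd2 overlapped with C3H. For Rpgrip1, the values were 1.61, 1.90 and 1.78 in C3H, 0.867, 0.420 and 0.671 in Pde6b rd1, 4.08, 2.78 and 2.77 in Pde6b rd10 and 1.24, 1.59 and 1.68 in Prph rd2. The order of Pde6b rd1, C3H and Pde6b rd10 was the same as for Bbs9, again without overlap. It was also that of the whole libraries, so that it is not particular to these genes. All junction reads per 1000 reads on all genes were 0.576 to 0.685 in Pde6b rd1, 0.734 to 0.917 in C3H and 0.966 to 1.05 in Pde6b rd10, without overlap, and 0.771 to 0.895 in Prph rd2. These ratios are descriptions with no test, and they combine counts that were made by different aligners.

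**Figure D5:**
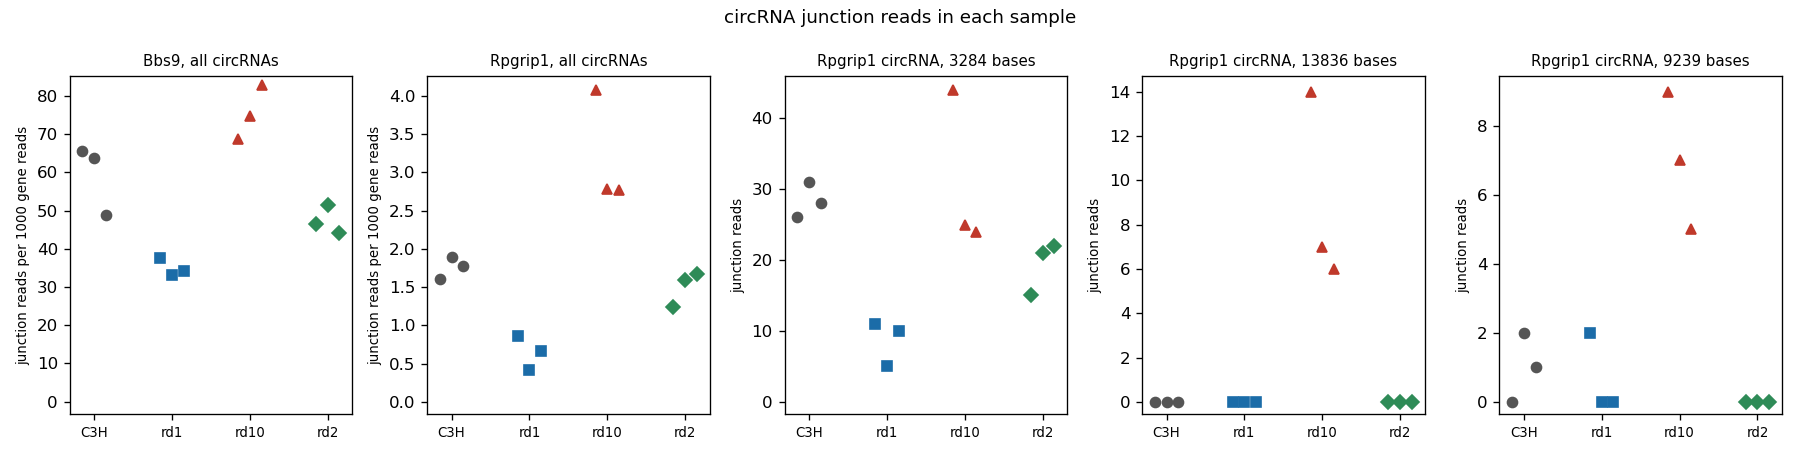
Junction reads in each of the 12 samples, per 1000 gene reads for all circRNAs of Bbs9 and Rpgrip1 (first and second panel) and as counts for the 3 called Rpgrip1 circRNAs, titled by their genomic span. The circRNA of 13836 bases has reads in the Pde6b rd10 samples alone (14, 7 and 6).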

How the data were processed

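Retinal RNA of 12 mouse samples, depleted of ribosomal RNA and made into directional libraries, was analysed in 4 groups of 3, assigned from the sample titles. The authors removed adapters and low-quality reads, aligned to GRCm38 (HISAT2, per the labels) and deposited raw gene counts from HTSeq 0.11.2 and FPKM values. The authors also deposited circRNA junction counts, from TopHat2 2.1.1 and CIRCexplorer with candidates under 2 reads dropped, and their TPM values, which divide by all junction reads.

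Counts were normalized (TMM), filtered (filterByExpr) and tested on the whole tables with edgeR 4.0.16 in R 4.3.3 (quasi-likelihood test, Benjamini-Hochberg adjustment), each model against C3H in 6 samples and Pde6b rd10 against Pde6b rd1 in 12. The steps were tested on simulated data. The depth was 17049495 to 24755890 reads on genes per sample, and the floor of 3 counts is limited to counting error, because PCR copies of a molecule cannot be recognized in these reads. Replicates of a group differed by more than sampling noise, and each counted as 1 sample. The replicate numbers were not used to pair the samples in the main fits, and whether they do pair them was not settled. The alternatives tried were limma 3.58.1 on log2 FPKM or log2 TPM, DESeq2 1.42.0, other size factors and filters, a replicate block, all 12 samples in 1 fit, the C3H sample of the matching day, and each replicate left out. Gene positions and overlaps came from GENCODE vM21 and promoters from RefSeq. Tables and figures were made with Python 3.11.15, pandas 2.3.3 and matplotlib 3.10.9.

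The members and lists were chosen with earlier results of these data known. All 35 members may be named, with full statistics for those called in a comparison and the highest or lowest of their role. From each other list, at most 4 called genes per comparison and direction were named, beside markers. The proteins of the set were not analysed here.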

Additional observations from a re-analysis of the deposited data

Results flagged for a closer look

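For 6 genes of the set, Pde6b rd10 and Pde6b rd1 differed by at least 1.5-fold in the direct comparison. Of the 35 genes, 2 were higher and 4 lower in Pde6b rd10, where 17.6% of all genes tested were higher and 11.2% lower. Changes of this size were thus not more common in the set than among all genes. The log2 fold change of Pde6b rd10 over Pde6b rd1 was -0.69 for Cep290, -0.69 for Rpgr, -0.65 for Bbs9 and -0.63 for Nphp4, and it was 0.88 for Bbs7 and 1.47 for Kif17. Against C3H, Cep290 had 0.22 in Pde6b rd1 and -0.50 in Pde6b rd10, and Nphp4 had 0.19 and -0.47, so that these genes lay on opposite sides of C3H in both models. Rpgr had 0.65 and -0.06, and Bbs9 had 0.07 and -0.60. Bbs7 had -0.02 and 0.84, and Kif17 had -0.31 and 1.13. Kif17 rests on 31 to 38 reads per sample in Pde6b rd1 and 83 to 128 in Pde6b rd10. The models differ in age, strain and sex-linked RNA as well as in the allele, and these cannot be told apart.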

How the results depend on the processing

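No gene called at an adjusted p under 0.05 changed direction in any alternative. In every alternative the call held for 6 of 12 genes in Pde6b rd1, 16 of 22 in Pde6b rd10, 0 of 4 in Prph rd2 and 18 of 23 between Pde6b rd10 and Pde6b rd1. The causes of the changes below were not tested. With library size alone, the genes higher in Pde6b rd1 went from 4 to 12 and those in Prph rd2 from 0 to 2. Those at least 1.5-fold lower in Pde6b rd10 went from 2 to 0. The medians of the set went to 0.0333 in Pde6b rd1, -0.12 in Pde6b rd10 and -0.19 between both. The all-gene medians moved too, from -0.011 to 0.063, from -0.002 to 0.053 and from 0.003 to -0.041 in the same order. The median of the set lay below that of all genes in each. With limma on log2 FPKM, with 1 or 0.1 added, 11 or 8 genes were higher and 5 or 4 lower in Pde6b rd1 (medians 0.0303 and 0.0346), 0 in both were 1.5-fold lower in Pde6b rd10 (median -0.12 in both), 0 in both were lower in Prph rd2, and the median between both Pde6b models was -0.19 with 0.1 added. With 1 added, 1 gene was 1.5-fold higher in Pde6b rd10, over C3H and over Pde6b rd1. The same setting gave all-gene medians of 0.044 in Pde6b rd1 and 0.037 in Pde6b rd10, both above those of the set. For Pde6b rd1 it placed 4812 of all genes above C3H and 2396 below, at an adjusted p under 0.05 from limma. Without the low-count filter 1 gene was higher in Prph rd2, and in the fit of all 12 samples 2. With the C3H sample of the matching day alone, whose spread is taken from the other samples, 2 genes were higher in Pde6b rd1 and 0 lower in Prph rd2.

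With the replicate number as a block, the genes lower in Prph rd2 went from 4 to 1. The block moved no other count by over 1.5 times. No same-numbered pairs correlated above 0.1 throughout, but in Pde6b rd1 against C3H each sample correlated best with its own number (0.0642, 0.0462 and 0.0919). Between Pde6b rd10 and Pde6b rd1 the same-numbered pairs had -0.0387, 0.186 and 0.197, while a pair of unlike numbers reached 0.168 in Prph rd2 against C3H. These values do not settle whether the numbers pair the samples.

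With each replicate left out in turn, the genes 1.5-fold lower in Pde6b rd10 ranged from 1 to 2, with 1 without C3H replicate 1 or 3 or Pde6b rd10 replicate 2 or 3. Those lower in Prph rd2 ranged from 1 to 4, with 1 without any of the C3H replicates, and those higher from 0 to 1, with 1 without Prph rd2 replicate 2. The called circRNAs that were lower ranged from 1 to 2 in Pde6b rd1 (2 without its replicate 2) and from 0 to 2 in Pde6b rd10 (2 without its replicate 1). With circRNAs of at least 2 reads in any sample, 2 were lower in Pde6b rd1 and 3 in Pde6b rd10, and with limma 1 was higher in Pde6b rd10. Kif17 (31 to 128 reads) and most circRNAs are limited by depth.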
